A study of Mus musculus with 7 samples.

Results

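Nts GABAergic neurons are inhibitory neurons that carry transcripts of neurotensin. They were selected here from in situ transcript counts as segmented cells with at least 5 transcripts of Gad1 and Gad2 together, at least 5 of Nts, at most 2 of Ppp1r1b and at most 3 each of Slc17a6 and Slc17a7. Of 384076 cells, 2072 met this rule. Gad1 and Gad2 encode the enzymes that make GABA, Nts the precursor of neurotensin, Ppp1r1b the striatal phosphoprotein DARPP-32, and Slc17a6 and Slc17a7 the vesicular glutamate transporters VGLUT2 and VGLUT1. Because these 6 genes chose the cells, their levels are given as a description and were not tested. The other 291 of the 297 measured genes were tested.

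Neurotensin is a secreted peptide that acts on G-protein-coupled receptors and is known for lowering body temperature and food intake, for blunting pain and for modulating dopamine neurons. Neurons that make it together with GABA are known from the central amygdala, the bed nucleus of the stria terminalis, the lateral septum and several hypothalamic nuclei, where many of them project over long distances. A peptide neuron usually stores several peptides beside its fast transmitter, so the other peptides, receptors and calcium-binding proteins that it makes help to describe it.

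The cells come from 7 fresh-frozen mouse hemisections (genotype WT), cut coronally at 10 µm and read with Xenium, a method that locates individual RNA molecules of a chosen set of genes by imaging. The anterior position (bregma -0.58 mm) has replicates 1 and 2, the intermediate position (bregma -0.70 to -0.82 mm) replicates 1 and 2, and the posterior position (bregma -0.94 mm) replicates 1, 3 and 4. Posterior replicates 3 and 4 lay on slide B and the other 5 sections on slide A. All sections share the genotype, no treatment, age or sex is named in their labels, and the sections were placed to pass through the anterior thalamic nuclei. The labels do not say that replicates are separate animals, so the spread behind each p-value may be technical rather than between mice.

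Sections held 50169 to 60720 cells and 17438577 to 23432215 transcripts. The median cell held 339 transcripts, the median Nts GABAergic neuron 449, and section medians of these neurons ran from 416 to 479. Control probes, which match no transcript, gave 0.390 counts per Nts GABAergic neuron. At least 6 such probes exist, the number found in a single cell, which limits this to 0.0649 per probe. Nts-negative GABAergic neurons had 0.843 control counts per cell, or 0.141 per probe. No barcode of an Nts GABAergic neuron was shared between sections, against 8 barcodes among all cells. Segmentation can assign a neighbour's transcripts to a neuron, and 7.19% of the transcripts of Nts GABAergic neurons came from 56 genes listed for glial, vascular and meningeal cells, against 13.2% in Nts-negative GABAergic neurons.

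Posterior replicate 3 stands apart from the other sections. It held 956 of the 2072 Nts GABAergic neurons (46.1%), while the other 6 sections held 109 to 250 each and 1116 together. Results that rest on it are given with and without it. Averages below are over sections, each section counted equally, unless stated and with these exceptions. Values of Gad1 and Gad2 together, glial shares, detection shares, levels at the rule's limits and sub-cluster levels were taken over pooled cells. Posterior replicate 3 therefore weighs more in them.

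The steps of the rule show what it set aside. In all, 5505 cells had at least 5 Nts transcripts and 4546 of these also had at least 5 of Gad1 and Gad2. The Ppp1r1b limit removed 1424 of them and the Slc17a6 limit another 989, so most of the loss was to striatal-type and VGLUT2-positive cells. Among the selected cells Nts ran from 5 to 73 transcripts with a median of 10 and quartiles of 6 and 17, and 1056 cells (51.0%) had at least 10. Section medians of Nts were 8 to 11, the highest in posterior replicate 3. Cells just outside and just inside the Nts threshold were close in Calb2. Otherwise eligible cells with 4 Nts transcripts (433 cells) averaged 5.33 transcripts of Calb2 and 8.16 of Zcchc12, and cells with 5 (300 cells) averaged 5.34 and 6.95. Across the Slc17a6 limit, cells at 3 (173 cells) averaged 10.0 transcripts of Calb2 and cells at 4 (109 cells) 11.1.

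The selected cells held more GAD transcripts than the comparison class as counts, but not relative to all their transcripts. The median of Gad1 and Gad2 together was 33 in Nts GABAergic neurons and 19 in the 40342 Nts-negative GABAergic neurons, which met the same rule with no Nts transcript. Median totals were 449 and 311 transcripts, and per 1000 of all transcripts Gad1 and Gad2 together were 80.0 in Nts GABAergic and 85.0 in Nts-negative neurons. The balance of the enzymes also differed: Gad1 exceeded Gad2 in 55.2% of Nts GABAergic neurons and in 77.6% of Nts-negative ones. That share was 43.3% in posterior replicate 3 and 65.3% in the other 6 sections together (60.1 to 68.8%), against 75 to 81.1% of Nts-negative neurons in those 6. These are rule genes, so no test was made.

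Nts GABAergic neurons were a small part of the GABAergic neurons in 6 sections and a larger one in posterior replicate 3. The GABAergic neurons counted here are the 49345 cells that met the rule without its Nts part. The share was 2.71% in anterior replicate 1 and 3.34% in anterior replicate 2. It was 2.67% and 3.28% in intermediate replicates 1 and 2. In the posterior sections it was 1.94% in replicate 1, 9.44% in replicate 3 (95% Wilson interval 8.88 to 10.0%) and 2.92% in replicate 4. The 6 sections other than posterior replicate 3 thus lie within 1.94 to 3.34%, and the 3 positions overlap. Of all cells, the share was 0.208 to 0.452% in these 6 sections and 1.57% in posterior replicate 3.

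Position had no detectable effect on the share. The posterior mean was 4.76% and the mean of the 4 other sections 3.0%, a difference of 1.76 percentage points (two-sided exact permutation test, p = 0.743, smallest possible 0.0571). Without posterior replicate 3 the difference turned to -0.573 points (exact permutation p = 0.4, smallest possible 0.133). The pairwise comparisons of positions gave exact permutation p-values of 0.667 to 1.0, and none of the 3 could have gone below 0.2. Averaged over all cells, Nts was 0.204 to 0.284 transcripts per cell in the other 6 sections and 0.593 in posterior replicate 3. The rule selects on Nts, so this value is not separate from the share.

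**Figure D1:**
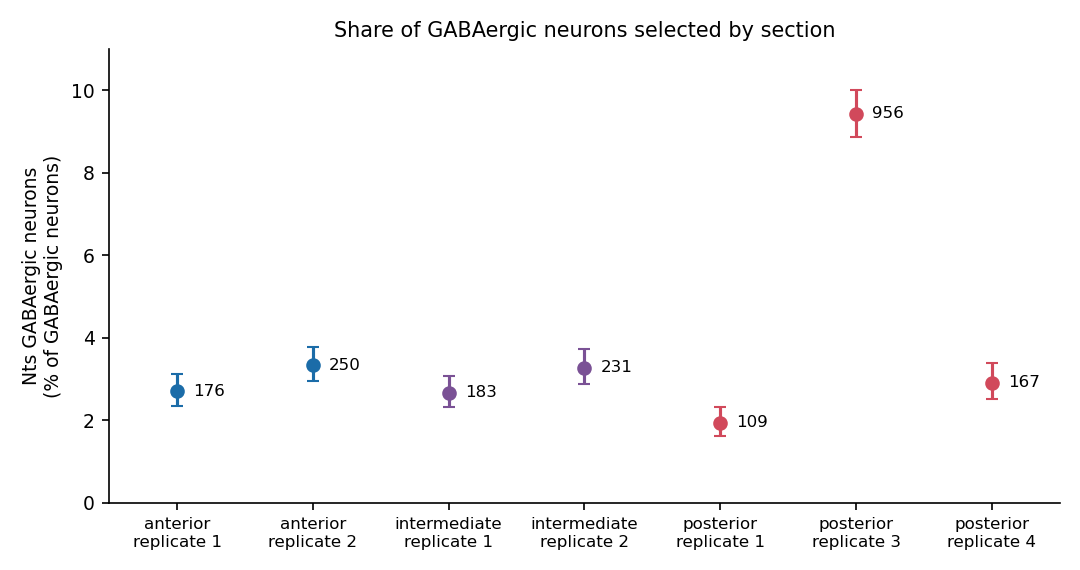
Share of GABAergic neurons that met the Nts rule, in percent, for each of the 7 sections, with 95% Wilson intervals for counting error and the number of Nts GABAergic neurons beside each point. Posterior replicate 3 lies at 9.44%, and the other 6 sections lie between 1.94 and 3.34%.

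The first comparison asked how Nts GABAergic neurons differ from GABAergic neurons without Nts in the same sections. The opioid peptide genes Penk and Pdyn, 5 of 7 genes of calcium-binding proteins and 6 of 10 receptor genes were higher in Nts GABAergic neurons, and Pvalb, the parvalbumin gene, was lower. Of 291 genes tested with edgeR on sums per section, 101 (34.7%) were higher and 105 (36.1%) lower at an adjusted p of 0.05. Since so many genes passed, a list's count is read against these shares. Levels below are transcripts per 1000 transcripts of the 291 genes. The fold changes are edgeR's, whose TMM scaling allows for the differing make-up of the classes. With plain library totals in its place the median of all genes moved by -0.24 on the log2 scale, and the split became 75 higher and 137 lower (35.4% of calls higher, against 49.0%).

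The neuropeptide precursor genes gave a mixed picture, with 3 of 7 tested higher and 2 lower (median log2 difference -0.58, against 0.004 over all genes). Penk, which encodes the enkephalin precursor, ran from 4.67 to 11.4 transcripts per 1000 over the 7 sections of Nts GABAergic neurons (median 6.83) and from 2.94 to 5.39 (median 4.03) in Nts-negative ones. The ranges overlapped, but Penk was higher in all 7 sections, 2.06-fold (log2 difference 1.04 ± 0.16, SE, edgeR adjusted p = 7.92e-05). Pdyn, the dynorphin precursor gene, ran from 1.22 to 2.48 (median 1.49) against 0.609 to 0.900 (median 0.690), with no overlap, and was 2.67-fold higher (1.42 ± 0.16, adjusted p = 9.43e-06).

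Sst and Cort, which encode somatostatin and cortistatin and mark one class of interneurons, were lower. Sst ran from 0.221 to 1.43 (median 0.902) in Nts GABAergic neurons and from 1.37 to 1.93 (median 1.80) in Nts-negative ones, and was lower in 6 of 7 sections (-0.84 ± 0.25, edgeR adjusted p = 0.0101). Cort averaged 0.047 transcripts per cell in Nts GABAergic neurons, under the control-probe bound, so the size of its difference (-1.35) is not exact. Crh, the gene for corticotropin-releasing hormone, had a log2 difference of 0.47 ± 0.16 (adjusted p = 0.0222), a call that was lost in 10 alternatives, among them without anterior replicate 2 (0.41) or intermediate replicate 1 (0.31) or 2 (0.42), and turned to -0.22 when cells of both classes were limited to those with at most 5% glial transcripts.

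Vip, the gene for vasoactive intestinal peptide, known from cortical interneurons and the suprachiasmatic nucleus, depended on 1 section. In posterior replicate 3 it stood at 4.59 transcripts per 1000 in Nts GABAergic neurons and 0.737 in Nts-negative ones. In the other 6 sections it was 0.0860 to 0.213 in Nts GABAergic neurons, under the lowest Nts-negative section at 0.390. With all sections no difference was called (log2 difference -1.0 ± 0.62, edgeR adjusted p = 0.163, although DESeq2 called it lower at -1.43). Without posterior replicate 3 Vip was lower in Nts GABAergic neurons (-1.83, adjusted p = 9.55e-06). Pthlh, the gene for a parathyroid hormone-like peptide, was not called (-0.58 ± 0.26, edgeR adjusted p = 0.0659), but was called lower without anterior replicate 1 (-0.77) or 2 (-0.83).

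Receptors for peptides and modulators were more often higher, with 6 of 10 higher and 2 lower (median log2 difference 0.52). Htr2c, the serotonin 2C receptor, ran from 5.96 to 9.52 transcripts per 1000 (median 8.94) against 3.61 to 5.26 (median 4.49) and was 2.24-fold higher (log2 1.16 ± 0.11). Oprm1, the mu-opioid receptor, ran from 4.86 to 6.72 (median 5.59) against 2.39 to 4.28 (median 3.18) and was 2.12-fold higher (1.08 ± 0.11). The sections of the classes did not overlap for either gene. Npy2r, a neuropeptide Y receptor, was 2.56-fold higher (1.36 ± 0.16). Tacr1, the substance P receptor, was 1.58-fold higher (0.66 ± 0.12) and lost its call among cells with at most 5% glial transcripts (0.26, adjusted p = 0.214). The call of Htr1f, a serotonin receptor gene (0.46), was lost in 12 alternatives and turned to -0.17 in those cells. Leaving out any section but posterior replicates 1 and 3 was enough to lose it (0.34 to 0.45).

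The panel holds 1 neurotensin receptor gene, Ntsr2, which is known mainly from astrocytes. It was lower in Nts GABAergic neurons in all 7 sections, at 6.99 to 8.90 transcripts per 1000 against 9.83 to 11.7 (log2 difference -0.26 ± 0.07, edgeR adjusted p = 0.00563). Among cells with at most 5% glial transcripts it turned higher (0.44). Ntsr2 is itself counted in that limit, so this value comes from cells chosen partly on Ntsr2 and is not a test of it. The astrocyte list that holds Ntsr2 was lower throughout, and its 8 genes summed to 27.5 to 38.5 per 1000 in Nts GABAergic neurons and 45.7 to 54.0 in Nts-negative ones.

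Of 7 genes of calcium-binding proteins, 5 were higher, 1 lower and 1, Cabp7, not called (median log2 difference 0.95). Calb2, which encodes calretinin, ran from 11.6 to 21.3 transcripts per 1000 in Nts GABAergic neurons (median 14.3) and from 4.4 to 10.1 (median 6.32) in Nts-negative ones. The sections of the classes did not overlap, and the fold was 2.60 (log2 1.38 ± 0.11, edgeR adjusted p = 8.75e-07). Calb1, which encodes calbindin, was 1.93-fold higher in all 7 sections (0.95 ± 0.08), and the neuronal calcium sensor Hpcal1 and the calcium-binding protein gene Necab1 were 1.99-fold and 1.93-fold higher. Pvalb, the lower one, encodes parvalbumin of fast-spiking neurons. It ran from 0.939 to 7.54 (median 5.75) against 24.9 to 50.2 (median 36.1), 6.66-fold lower (-2.74 ± 0.24, adjusted p = 1.48e-06).

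Of 22 markers of GABAergic classes, 6 were higher and 10 lower (median log2 difference -0.54). The lower genes included Kcnmb2, a subunit of calcium-activated potassium channels, 2.15-fold lower, and Syt2, a fast vesicle sensor of parvalbumin neurons, 2.23-fold lower. Prox1, a transcription factor of interneurons from the caudal ganglionic eminence, was 1.83-fold lower. It was also a leading gene of the Opalin-led sub-cluster of Nts GABAergic neurons, at 3.83 transcripts per cell against 0.673 in the others. Oligodendrocyte genes, of which Opalin is 1, summed to a section median of 15.8 per 1000 against 32.5 in Nts-negative neurons. Their part in the Prox1 difference was not tested. Lamp5, a membrane protein of neurogliaform cells, was 2.11-fold higher and Th, tyrosine hydroxylase of catecholamine synthesis, 2.96-fold higher, at 0.319 ± 0.109 transcripts per cell (SD, n = 7). Adarb2 and Nr2f2 were not called (log2 differences 0.18 and 0.05), though Adarb2 was without intermediate replicate 2 (0.23). Chat, the acetylcholine-making enzyme, ran from 0.294 to 1.19 against 1.01 to 2.18 and was lower (-0.81 ± 0.17, edgeR adjusted p = 0.000883).

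Genes of striatal and extended amygdala projection neurons were more often higher, with 6 of 9 higher and 1 lower (median log2 difference 0.39). Beside Penk and Pdyn these were Foxp2, a forkhead transcription factor, 2.17-fold higher (log2 1.12 ± 0.16), Pde7b, a cAMP phosphodiesterase, 1.55-fold, Wfs1 of the endoplasmic reticulum, 1.31-fold, and Meis2, a homeobox factor, 1.31-fold. Foxp1 was lower (-0.29) and Bcl11b was not called (0.33 ± 0.15, edgeR adjusted p = 0.0744) except without posterior replicate 3 (0.49). The rule caps Ppp1r1b of the same neurons, which bears on this list. The Meis2 call was lost in 9 alternatives, among them without anterior or intermediate replicate 1 (0.31 and 0.33), and in posterior replicate 3 Meis2 was lower in Nts GABAergic than in Nts-negative neurons, at 7.61 against 13.3 per 1000. Among 27 transcription factors in all, 5 were higher and 10 lower (median -0.22).

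The largest differences among the called genes were in genes of several kinds. Rprm, a cell cycle regulator, was 3.10-fold higher (log2 1.63 ± 0.14), at 3.03 to 4.54 transcripts per 1000 against 1.05 to 2.37. Cbln4, a secreted cerebellin that links synapses, was 2.87-fold higher (1.52 ± 0.10). Zcchc12, a zinc finger protein, was the most abundant of these, at 9.49 ± 1.46 transcripts per cell (SD, n = 7), and 2.73-fold higher (1.45 ± 0.09). Syt5, a synaptotagmin, Nell1, a secreted protein, and Arhgap6, a GTPase-activating protein, were 2.72-fold, 2.36-fold and 2.30-fold higher. On the lower side were Spp1, which encodes osteopontin (-3.29), Rab37 (-2.22), Ramp3, a receptor-activity-modifying protein (-1.80), and Cplx3, a complexin of the release machinery (-1.47). Spp1 averaged 0.063 transcripts per cell in Nts GABAergic neurons, under the control-probe bound, so the size of its difference is not exact.

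Genes of axon guidance, adhesion, channels and transmitter receptors were higher more often than all genes (34.7%). Vesicle release and activity-regulated genes were not. Among 22 genes of axon guidance and cell adhesion, 12 stood higher and 6 lower (median log2 difference 0.34), among them the cadherin gene Cdh4 at 2.09-fold and Nrp2, a semaphorin receptor, at 1.94-fold. Of 17 channel and transmitter receptor genes, 9 were higher and 2 lower (median 0.39). Of 12 vesicle release genes, 4 were higher and 3 lower (median 0.12), with the active zone gene Rims3 2.0-fold higher at 15.7 to 19.4 per 1000 against 8.48 to 11.9. Activity-regulated genes split 2 and 2 of 6. Arc, induced by synaptic activity, was 1.90-fold lower at 1.5 to 3.71 against 5.18 to 7.06, with no overlap, while the calls of Fos (0.44 ± 0.15) and Bdnf (0.63 ± 0.18) were lost in 10 and 4 alternatives. That of Fos was lost without any one of anterior replicate 2 (0.42), intermediate replicates 1 (0.32) and 2 (0.41) and posterior replicate 4 (0.38).

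Genes of other cell types moved with this comparison. Of 56 glial, vascular and meningeal genes, 45 were lower in Nts GABAergic neurons and none higher (median log2 difference -0.77). Opalin of oligodendrocytes stood at a median of 2.57 transcripts per 1000 against 7.49, Cldn5 of endothelium at 1.45 against 3.76 and Aqp4 of astrocytes at 4.13 against 7.53, so none of these markers was at 0. Limiting both classes to cells with at most 5% glial transcripts, a limit drawn on these same genes, left 5 of the 56 higher and 5 lower. It gave 77 genes higher and 67 lower in all, with 110 of the 206 calls in the same direction and 6 in the opposite one. These higher genes kept their call with smaller differences: Calb2 at 1.02, Zcchc12 at 0.93, Syt5 at 0.91, Pdyn at 0.74, Penk at 0.73, Htr2c at 0.68 and Calb1 at 0.46 on the log2 scale. The calls of Cntnap4, Wfs1 and Meis2 were lost, and Pvalb was as low (-2.89).

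The comparison did not rest on posterior replicate 3. Without it 104 genes were higher and 104 lower, and 200 of the 206 calls stood in the same direction. It did depend on what stands for Nts-negative cells. Against only those with at least 5 Sst transcripts, 96 of the 206 calls stood in the same direction and 36 were called in the opposite one. There, Pdyn (-1.21), Tacr1 (-0.69) and Wfs1 (-0.60) were lower in Nts GABAergic neurons and Chat (1.67) was higher, while Calb1 (0.11), Nell1 (0.17) and Th (0.63) were not called.

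Levels within the GABAergic neurons were also read along the number of Nts transcripts, as a description with no test. Calb2 averaged 7.30 ± 2.22 transcripts per 1000 (SD, n = 7) in cells with no Nts, 10.6 ± 1.78 at 1 to 2, 12.5 ± 2.16 at 3 to 4, 14.1 ± 2.16 at 5 to 9, 16.0 ± 4.44 at 10 to 19 and 18.8 ± 6.48 at 20 or more. Zcchc12 went from 9.90 to 27.0 over the same steps and Pvalb from 36.8 to 1.70. Foxp2 went from 2.47 with no Nts to 5.76 at 10 to 19 and was 5.21 at 20 or more. Median transcripts per cell went from 311 to 563 along these steps, and the part of depth in them was not tested.

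The second comparison set Nts GABAergic neurons beside Nts glutamatergic neurons, to show which genes differ between these Nts cells. The latter were 349 cells with at least 5 Nts and 5 Slc17a6 transcripts and at most 3 of Gad1 and Gad2 together. Cell positions were not used, so transmitter and brain region cannot be told apart in it. Penk, Sst, Adarb2 and 4 of 9 striatal and extended amygdala genes were higher in the GABAergic cells, and Calb2, Nrn1, Rspo3 and Bdnf were higher in the glutamatergic ones. Sections held 16 to 77 glutamatergic cells, so this comparison is less precise. Of 274 genes tested with edgeR, 38 (13.9%) were higher in Nts GABAergic neurons and 37 (13.5%) lower.

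Among peptide genes, 2 of 5 tested were higher and none lower (median log2 difference 1.48, against 0.076 over all genes). Penk ran from 4.67 to 11.4 transcripts per 1000 in Nts GABAergic neurons and from 0.560 to 3.76 (median 1.22) in glutamatergic ones, with no overlap, 4.58-fold higher (2.20 ± 0.38, edgeR adjusted p = 0.000876). Sst was 3.71-fold higher in the GABAergic cells (1.89 ± 0.38), with section medians of 0.163, 0.902 and 1.80 per 1000 in glutamatergic, Nts GABAergic and Nts-negative neurons. The glutamatergic level is near the control-probe bound, so the size of this fold is not exact. Pdyn (1.48 ± 0.53, edgeR adjusted p = 0.0541; called without posterior replicate 4, at 2.07) and Crh (0.65 ± 0.49, adjusted p = 0.374) were not called.

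The receptors split, with 1 of 10 higher and 2 lower (median log2 difference -0.20). Npy2r was 2.88-fold higher in the GABAergic cells in 6 of 7 sections (1.53 ± 0.26). Oprm1 was lower in them (-0.75 ± 0.15), at 4.86 to 6.72 transcripts per 1000 against 6.77 to 13.0. Htr2c was not called (0.10 ± 0.16, edgeR adjusted p = 0.686), with 5.29 to 11.7 transcripts per 1000 in the glutamatergic cells.

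Calretinin was higher still in the glutamatergic cells. Calb2 ran from 31.2 to 60.2 transcripts per 1000 there (median 39.2), above all sections of the GABAergic cells, 2.82-fold (log2 difference -1.5 ± 0.13, edgeR adjusted p = 5.59e-06). Calb1 and Hpcal1 were 1.78-fold and 1.87-fold higher in the GABAergic cells, the call of Calb1 being lost without intermediate replicate 1 (0.72). Pvalb was 3.06-fold higher in them (1.61 ± 0.26) at 0.939 to 7.54 against 0.456 to 3.75, although it was low beside Nts-negative neurons. It was uneven among the GABAergic cells, at 23.3 transcripts per cell in a Pvalb-led sub-cluster of 100 cells and 0.444 in the others. Only 7.67% of the Nts GABAergic neurons had at least 3 Pvalb transcripts. In all, 3 of 7 calcium-binding protein genes were higher and 1 lower.

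The largest differences were on the glutamatergic side. Nrn1, which encodes neuritin, a neurite growth factor, stood at 1.07 to 1.83 transcripts per 1000 in the GABAergic cells and 13.8 to 29.0 in the glutamatergic ones, 14.8-fold lower (-3.89 ± 0.18, edgeR adjusted p = 1.08e-08). Rspo3, a secreted Wnt amplifier, was 8.52-fold lower, Tmem163, a zinc transporter, 5.74-fold, the cerebellin gene Cbln1 5.15-fold and Bdnf, the neurotrophin gene, 4.54-fold. On the other side were Adarb2, an RNA-editing-related gene of interneurons, 4.69-fold higher (2.23 ± 0.22), Th 4.18-fold, Grik3, a kainate receptor subunit, 3.38-fold, and Arhgap6 2.67-fold. Of 6 activity-regulated genes, Arc was higher (1.04 ± 0.22) and Nrn1 and Bdnf were lower.

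Of 9 striatal and extended amygdala genes, 4 were higher and none lower (median log2 difference 0.94): Penk, Meis2 at 2.34-fold, Wfs1 at 2.14-fold and Pde7b at 1.92-fold. Foxp2 was not called (0.65 ± 0.58, edgeR adjusted p = 0.450), with 0.327 to 12.1 per 1000 over the glutamatergic sections. Several genes that set Nts GABAergic apart from Nts-negative GABAergic neurons were not called here, with Syt5 at a difference of 0.01 ± 0.09, Cbln4 at -0.09 ± 0.16 and Rprm at 0.46 ± 0.28. The comparisons share the Nts GABAergic cells, so their values are set side by side only. Of 51 glial, vascular and meningeal genes tested, 4 were higher and 3 lower, and the glial share was 6.45% in the glutamatergic cells.

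**Figure D2:**
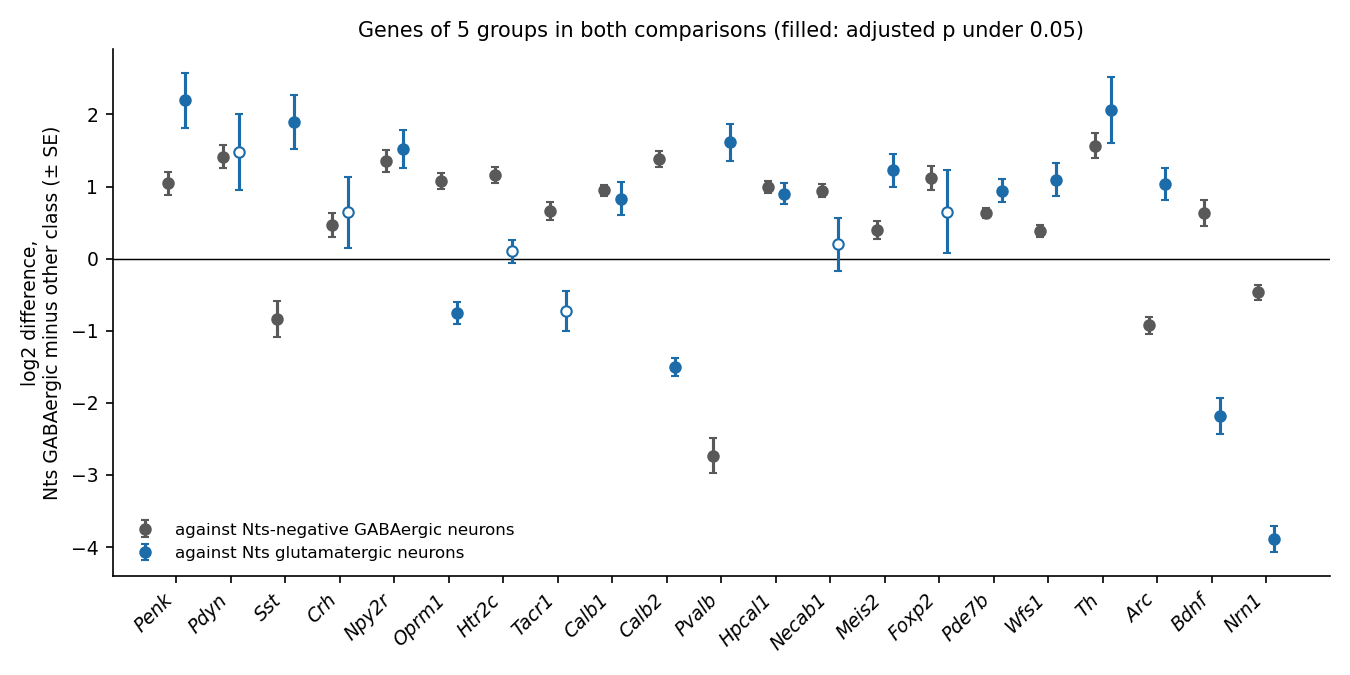
Log2 differences ± SE (edgeR) of Nts GABAergic neurons against Nts-negative GABAergic neurons (grey) and against Nts glutamatergic neurons (blue) for peptide, receptor, calcium-binding, projection neuron and activity genes, filled where the adjusted p is under 0.05. Penk, Npy2r, Calb1 and Th lie above 0 in both, while Calb2 is at 1.38 in the first and -1.5 in the second.

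The third comparison asked whether Nts GABAergic neurons change along the anterior to posterior axis. No gene was called between positions, except in a fit with the replicate number as a block, which has 1 residual degree of freedom. Replicate numbers 3 and 4 occur only at the posterior position, so the posterior side of that fit rested on posterior replicate 1 alone. edgeR called 0 of 284 genes (0.0%) for posterior against anterior, intermediate against anterior and posterior against intermediate alike, with 6, 1 and 5 genes at an unadjusted p under 0.05. DESeq2 also called 0 in each, with 4, 0 and 3 unadjusted. The lowest unadjusted p over the 3 comparisons was that of Hs3st2, a heparan sulfate enzyme, at 0.959 transcripts per 1000 in posterior and 0.472 in intermediate sections (edgeR adjusted p = 0.987). The difference between this effect and that in Nts-negative neurons was also called for 0 of 291 genes (0.0%) by edgeR and by DESeq2, each with 6 genes at an unadjusted p under 0.05. With 2 or 3 sections a position, these counts do not show that positions are alike.

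Posterior replicate 3 differed in composition from the posterior sections 1 and 4. For 138 of 291 genes (47.4%) its level in Nts GABAergic neurons lay outside the range of the other 6 sections, against 54 to 108 genes for each other section in turn. Vip was 31.0 times the median of the other 6 sections, Nell1 1.84 times and Calb1 1.75 times, at 12.8 transcripts per 1000 against 6.82 to 8.73. Meis2 was at 7.61 against 21.9 to 28.5 in the others, Foxp2 at 2.48 against 3.92 to 6.40 and Pvalb at 0.939 against 4.30 to 7.54. Penk was lowest there at 4.67, and highest in posterior replicates 1 and 4 at 11.4 and 10.3. These are values of 1 section and were not tested.

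**Figure D3:**
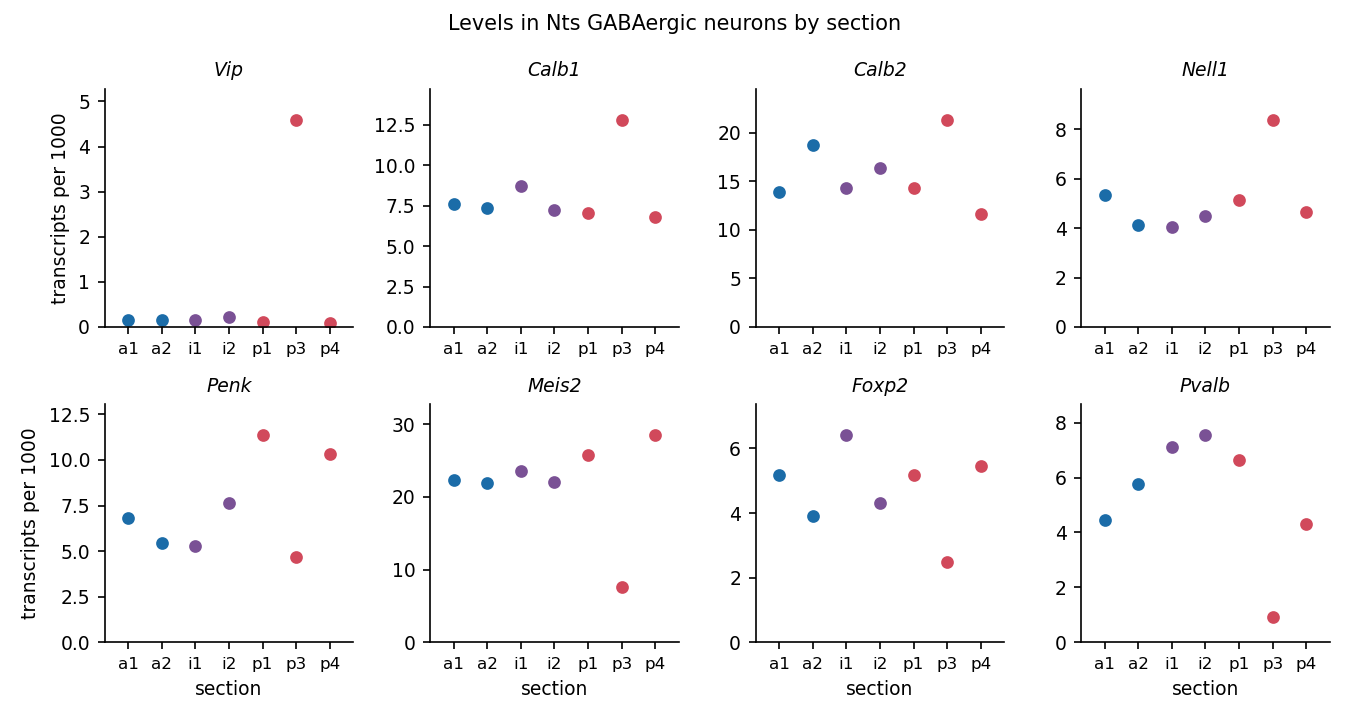
Transcripts per 1000 in Nts GABAergic neurons for 8 genes in the 7 sections (a, anterior; i, intermediate; p, posterior, with replicate numbers), axes starting at 0. Posterior replicate 3 is highest for Vip, Calb1, Calb2 and Nell1 and lowest for Penk, Meis2, Foxp2 and Pvalb.

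Many Nts GABAergic neurons carried a further peptide transcript. With at least 3 transcripts counted as detected, 743 of 2072 (35.9%, 95% Wilson interval 33.8 to 37.9%) had at least 1 of 7 other peptide genes, 622 had 1, 109 had 2 and 12 had 3. Of Nts-negative GABAergic neurons 22.7% did. Without posterior replicate 3 the shares were 36.4 and 22.7%. With every cell thinned to 100 transcripts, which leaves 2058 and 38399 cells, the shares were 12.7% and 7.65%. The share depends on the minimum, at 76.0% with at least 1 transcript and 22.5% with at least 5.

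Penk was the most frequent, in 23.0% of Nts GABAergic neurons against 12.7% of Nts-negative ones, and in 15.8% (posterior replicate 3) to 41.9% (posterior replicate 4) by section. Without posterior replicate 3 it was in 29.1% against 12.4%. Pdyn was detected in 5.74% against 2.10%, Crh in 2.99% against 1.46%, and Sst in 2.90% against 6.67%. Without posterior replicate 3 these were 7.08 against 2.11%, 2.42 against 1.38% and 4.66 against 7.11%. Of the 119 cells with Pdyn, 68 (57.1%) also had Penk, which is 14.3% of the 476 cells with Penk, so most cells with Pdyn had Penk, while most cells with Penk had no Pdyn at this minimum. Th was detected in 2.65% against 0.635% (3.50 against 0.582% without that section) and Chat in 2.22% against 2.69%. With cells of both classes thinned as above, Crh at this minimum was in 0.486% against 0.484% and Th in 0.049% against 0.07%. The gaps of Crh and Th at this minimum were thus not seen at equal depth. Penk (8.07 against 4.90%) and Pdyn (1.12 against 0.661%) stayed more frequent. Sst (0.389 against 1.10%) and Chat (0.729 against 1.38%) stayed less frequent. With at least 1 transcript after thinning, Crh was in 4.91% against 2.75% and Th in 5.44% against 2.52%. Calb2 reached 72.7% of Nts GABAergic neurons in posterior replicate 3 and 51.6% in the other 6 sections together (44.0 to 56.8%), against 25.9 and 22.6% of Nts-negative ones. Calb1 reached 61.4 and 40.4% (37.1 to 43.7%), against 25.6 and 17.4%.

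Vip with Nts was almost limited to posterior replicate 3. Of 149 Nts GABAergic neurons with at least 3 Vip transcripts, 148 lay in that section, where they were 15.5% of its Nts GABAergic neurons, 1 lay in anterior replicate 2, and the other 5 sections had 0. Nts-negative neurons with Vip were present in every section. They reached 3 Vip transcripts in 0.820 to 2.25% of cells by section, and in 1.38% in posterior replicate 3. Of the 149 cells, 136 (91.3%) also had Calb2, 11 had Penk and none had Sst.

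Clustering the Nts GABAergic neurons on the 291 genes gave 12 sub-clusters, described here by leading gene, with no test and no cell type name. The 5 led by glial or vascular genes held 525 cells (25.3%), 19.7 to 30.1% by section, with a median of 15 GAD transcripts against 40 in the other 7. These cells met the rule with few GAD transcripts, and whether Nts and GAD in them come from a neighbouring cell was not tested.

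The 7 other sub-clusters held 1547 cells. The Vip-led one, with Opn3, an opsin gene, and Nell1 among its leading genes, held 473 cells, of which 404 lay in posterior replicate 3 (42.3% of its Nts GABAergic neurons), 35 in anterior replicate 2 (14.0%) and 26 in intermediate replicate 2 (11.3%). The other 4 sections had 1 to 3 cells each. Its cells averaged 3.41 Vip transcripts in posterior replicate 3 and 0.229 and 0.0769 in anterior and intermediate replicate 2, so cells outside posterior replicate 3 joined it with little Vip. Over all sections only 23.0% of its cells had at least 3 Vip transcripts, so most cells of the sub-cluster did not reach that minimum. The cells of this sub-cluster were rich in Nts, with a median of 15, and in Calb2, at 12.5 transcripts per cell.

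The next 2 sub-clusters were present in all sections. One of 323 cells was led by Pdyn, with Penk (6.40 transcripts per cell), Meis2, Bcl11b and Foxp2, and low Calb2 at 1.85. The other, of 319 cells, was led by Foxp2, with Fign, Adarb2 and Meis2, and had Calb2 at 10.2 and Penk at 3.66. Their shares were 16.4 to 31.1% and 14.0 to 28.1% in the 6 other sections, and 7.22 and 7.74% in posterior replicate 3. Foxp2 was thus high both in a Penk-rich, Calb2-poor sub-cluster and in a Calb2-rich one.

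Smaller sub-clusters also varied among sections. The Sncg-led one, gamma-synuclein, had 155 cells and took 16.4 and 13.4% in anterior and intermediate replicate 2 but 2.27 and 3.28% in replicate 1 of those positions. A Chat- and Rxfp1-led one, with the relaxin receptor gene, had 110 cells, with 2.43 Chat transcripts per cell. The Pvalb-led one had 100 cells with 23.3 Pvalb transcripts per cell and Ramp3 and Kcnmb2, and 2 of its cells lay in posterior replicate 3. The smallest is not described here. A setting of 0.5 gave 11 sub-clusters (adjusted Rand index 0.84 with the 12) and of 1.0 gave 17 (0.654).

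**Figure D4:**
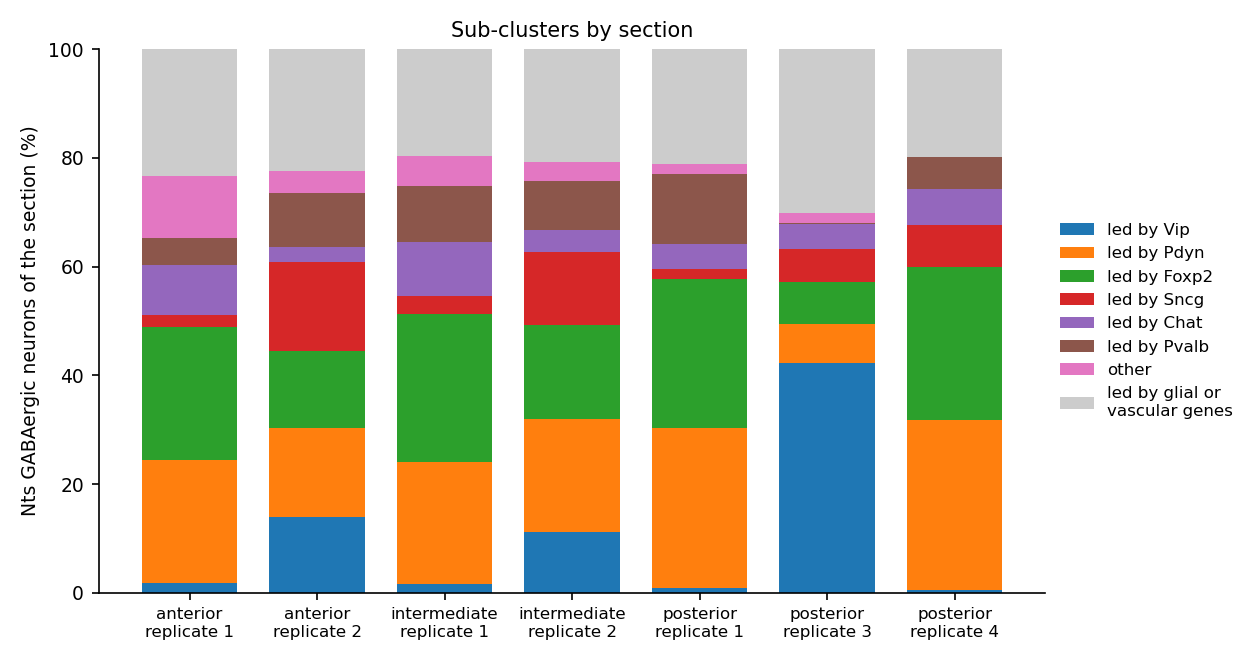
Percent of the Nts GABAergic neurons of each section in sub-clusters named by leading gene, with the smallest of the others as other and the 5 glial- or vascular-led ones joined in grey. The Vip-led sub-cluster takes 42.3% of posterior replicate 3 and 0.6 to 14.0% of the other sections.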

How the data were processed

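The deposited matrix gives raw transcript counts, genes by cells, without normalization, and a deposited cell table gives each cell's section. They were joined by barcode. The submitters' processing notes name Seurat. Segmentation, cell filters and cell positions were not given in the sources used here or not used here. The members and gene lists were chosen with earlier results of these data known. Counts were summed per section and class (classes of at least 10 cells) and tested with edgeR 4.0.16 (filterByExpr, TMM, quasi-likelihood F test, section as a block between classes, no block between positions) with Benjamini-Hochberg adjustment at 0.05. The 6 rule genes were left out of tests and library sizes. SE is the absolute log2 difference over the square root of F. The named genes are, among those called with 1 sign in every section and at least 0.2 transcripts per cell, the 10 largest in each direction, all of 5 fixed lists and up to 4 of each other list, and the text gives examples. Activity genes beyond that rule, and values of posterior replicate 3, were chosen after they were seen. On simulated counts 88.6% of 1.5-fold changes were recovered against Nts-negative neurons and 68.3% against glutamatergic ones. The simulation gave every gene the same spread and no difference in gene make-up between sections, so the real comparisons may recover other shares. Sub-clusters used scanpy 1.11.5 (20 components, 15 neighbours, Leiden resolution 0.7). No doublet caller was run. Some genes are not reported here. Of 297 symbols, 296 matched RefSeq, and no coordinates are given because the files name no genome build. DESeq2 1.42.0 and the other alternatives are in the closing section. R 4.3.3, Python 3.11.15 and scipy 1.17.1 were used.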

Additional observations from a re-analysis of the deposited data

How the results depend on the processing

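Between classes, DESeq2 called 210 genes against Nts-negative neurons (205 shared with edgeR's 206) and 87 against glutamatergic ones (74 of 75 shared). Leaving out each section in turn gave 187 to 208 calls (90 to 104 higher, 95 to 104 lower) and 64 to 83 (30 to 43 higher, 34 to 41 lower). With at most 5% glial transcripts the lower calls against Nts-negative neurons were 67, and these genes turned: Aqp4 to 0.079, Cldn5 to 0.12, Opalin to 0.25, Ntsr2 to 0.44, Crh to -0.22 and Htr1f to -0.17. Aqp4, Cldn5, Opalin and Ntsr2 are among the genes counted in that limit, so their turn is not a test of them. Against Sst-rich Nts-negative neurons 96 of 206 calls stood and 36 were called the opposite way. Of the genes named, these changed sign: Chat 1.67, Cldn5 0.27, Ntsr2 0.36, Fos -0.037, Meis2 -0.28, Nr2f2 -1.38, Pdyn -1.21, Tacr1 -0.69 and Wfs1 -0.60. With sums per replicate number and the replicate block, 171 and 52 genes were called, and 22 were higher than in glutamatergic neurons. Between positions a replicate block with 1 residual degree of freedom called 17 (posterior against anterior), 1 (intermediate against anterior) and 16 (posterior against intermediate) genes. Differences of replicates 1 and 2 correlated across 270 genes at r = 0.362 between anterior and intermediate, and the labels tie no number to an animal. A slide term or leaving out any section left 0 calls. The share difference ran from -0.573 to 3.18 points for posterior against the rest, -0.597 to 3.15 against anterior, -0.549 to 3.20 against intermediate, and -0.364 to 0.266 for intermediate against anterior. Co-detection was 76.0% at 1 transcript, 22.5% at 5, 12.7% after thinning and 36.4% without posterior replicate 3, the last chosen after seeing the data. The cause of these shifts was not tested, beyond fewer samples, other cells or another minimum by construction. Genes near the control-probe bound have inexact folds.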

Other observations

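The cells that the rule set aside for Ppp1r1b had a different peptide content. These 1424 cells, with at least 5 Nts and 5 GAD transcripts and more than 2 of Ppp1r1b, averaged 15.1 ± 2.23 Penk transcripts per cell (SD, n = 7 sections) against 3.06 ± 1.0 in Nts GABAergic neurons, 3.25 ± 1.26 of Pdyn against 0.707 ± 0.189 and 20.7 ± 1.32 of Meis2 against 9.08 ± 2.78. Their Calb2 was lower, at 1.49 ± 0.744 against 6.60 ± 1.37. They numbered 144 to 238 in each section, while Nts GABAergic neurons ran from 109 to 956.

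The 989 cells set aside for more than 3 Slc17a6 transcripts carried GAD and VGLUT2 transcripts together. They averaged 16.2 ± 2.46 transcripts of Calb2 and 10.4 ± 2.78 of Zcchc12, with 1.90 ± 0.462 of Penk, and held 75 to 402 cells by section. Their Gad2 averaged 9.78 ± 2.10 transcripts per cell against 17.5 ± 0.986 in Nts GABAergic neurons.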
